A study of Rattus norvegicus with 12 samples.

Results

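The miR-218 rows of small RNA libraries from rat hippocampus were examined for their sequences, their levels, the division of reads between them, and their difference after acute ethanol. The rows were chosen by name, as every listed arm with the stem rno-miR-218a or rno-miR-218b, which gave 4 of the 753 mature miRNAs in the count lists. They are rno-miR-218a-5p, rno-miR-218b, rno-miR-218a-1-3p and rno-miR-218a-2-3p. No threshold on a measured value entered this rule, but levels and fractional counts from earlier results of these data were known when the rows were picked. The animals were male Sprague Dawley rats, adult at P70 to P80, which were injected intraperitoneally with ethanol at 4 g/kg or its vehicle and killed 3 h later. The analysed libraries came from 4 vehicle rats (9, 10, 19 and 20) and 8 ethanol rats (3, 4, 7, 8, 15, 16, 23 and 24), 1 library per rat, while the study describes 8 rats per group. The labels give right hippocampus and the study gives dorsal hippocampus as the tissue, so the values describe a mixture of cell types. All groups share strain, sex and age, and the labels name no transgene or other treatment. In bulk tissue, fewer cells of a type and less RNA per cell cannot be told apart.

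A miRNA is cut from a hairpin precursor as a duplex of 2 arms. The arm that is retained in the silencing complex is called the guide, and the other, the passenger, is usually degraded. The hairpins of miR-218 are carried by introns of Slit2 and Slit3, which encode secreted axon guidance ligands that act on Robo receptors, and Robo mRNAs are themselves known targets of miR-218. The 5p arm is the known guide of this family, it is enriched in neurons, and it is best known from motor neurons.

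All 4 rows were matched by name to RefSeq (build GRCr8), and the sequences are shown because they bear on which reads each row can hold. Capitals mark the seed, bases 2 to 8, through which a miRNA pairs with its targets. The guide lies at chr10:20572547-20572567 (plus strand, hairpin Mir218-2) and again, with identical sequence, at chr14:66922413-66922433 (minus strand, hairpin Mir218-1). RefSeq places Mir218-2 within the span of Slit3 and Mir218-1 within that of Slit2. The row miR-218b is given at chr14:66922414-66922433 on the plus strand, as the only mature product of a hairpin named Mir3565.
rno-miR-218a-5p: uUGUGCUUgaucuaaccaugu
rno-miR-218b: cAUGGUUAgaucaagcacaa
rno-miR-218a-1-3p: aAACAUGGuuccgucaagcac
rno-miR-218a-2-3p: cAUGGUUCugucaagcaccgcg
reverse complement of rno-miR-218b: uugugcuugaucuaaccaug

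The reverse complement of miR-218b was identical to miR-218a-5p over all 20 of its bases. As RefSeq gives it, miR-218b is thus the opposite strand of the guide's own site in Slit2 and not a further sequence variant of the guide. Its seed differs from that of the guide, and none of the 4 seeds occurred in another of the 693 mature names of the RefSeq table. The passenger arms, at chr14:66922374-66922394 (minus strand) and chr10:20572589-20572610 (plus strand), could be compared over 18 bases. They differed there by 1 substitution, C12U, counted from the 5′ end of miR-218a-1-3p. By these sequences, a read that matches 1 arm exactly at this base can be assigned to its locus. Whether the authors' counting did so is not given in the sources used here. Compared with miR-218a-1-3p over 18 bases, miR-218b differed by C11A, C12G and G13A.

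The 3 hairpins are printed with their mature arms in capitals. The first is the Slit3 locus, the second the Slit2 locus, and the last the opposite strand of the Slit2 locus.
Mir218-2: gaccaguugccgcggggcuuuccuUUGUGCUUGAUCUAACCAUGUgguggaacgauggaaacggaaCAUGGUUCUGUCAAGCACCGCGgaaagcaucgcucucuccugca
Mir218-1: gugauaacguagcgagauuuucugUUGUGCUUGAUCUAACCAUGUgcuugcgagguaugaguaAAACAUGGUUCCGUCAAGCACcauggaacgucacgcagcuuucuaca
Mir3565: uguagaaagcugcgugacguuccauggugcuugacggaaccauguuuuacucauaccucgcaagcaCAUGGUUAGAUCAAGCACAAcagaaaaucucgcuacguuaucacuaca

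The reverse complement of Mir218-1 equalled the first 110 of the 114 bases of Mir3565. The hairpins of the Slit2 and Slit3 loci were identical at 70 of 110 aligned positions, and the guide occupied bases 25 to 45 of each. The annotation that the authors used for counting is not given in the sources used here, so it was not established which sequence their miR-218b stood for.

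**Figure D1:**
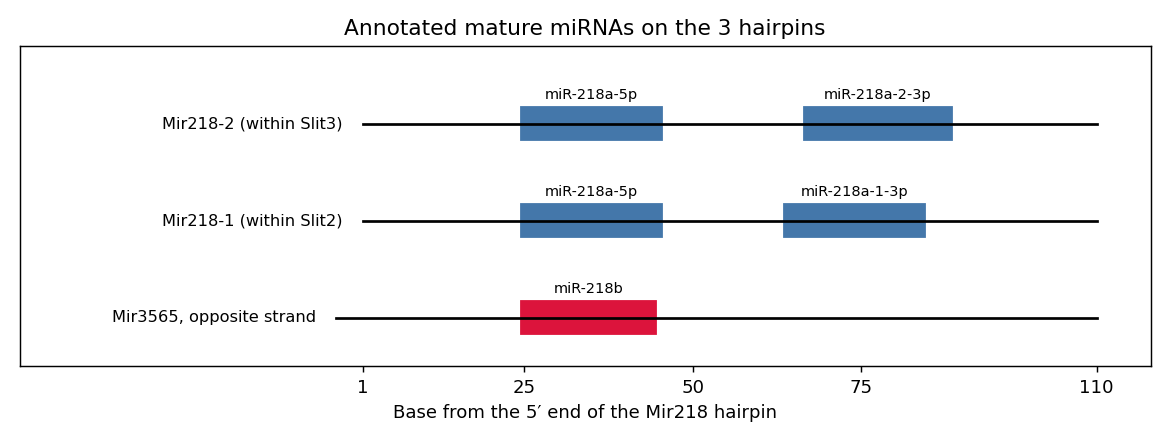
Positions of the annotated mature miRNAs, in bases from the 5′ end of the Mir218 hairpins (x axis), with Mir3565 drawn in the orientation of Mir218-1. Arms of the Mir218 hairpins are blue. The guide miR-218a-5p sits at bases 25 to 45 of both Mir218 hairpins, and miR-218b (red) lies over 20 of the guide's bases on the opposite strand of the Slit2 locus.

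The row miR-218b held most of the reads listed in the 4 rows. Of the summed reads of miR-218a-5p and miR-218b, miR-218b took 79.6%, 81.6%, 79.7% and 80.85% in vehicle rats 9, 10, 19 and 20. In ethanol rats the lowest share was 77.0% (rat 8; 95% Wilson interval 75.8% to 78.1%), the median 79.45% and the highest 82.4% (rat 15; 81.6% to 83.15%). Thus 4.01 ± 0.357 reads (SD, n = 12) were listed as miR-218b for each read listed as miR-218a-5p, and the ratio stayed between 3.34 and 4.68. The groups overlapped, and the spread between libraries was wider than the counting intervals of the extreme libraries, which cover counting error only. The mean log2 ratio of miR-218a-5p to miR-218b was -2.04 ± 0.0865 after vehicle (SD, n = 4) and -1.98 ± 0.145 after ethanol (SD, n = 8), and by a two-sided exact permutation test (p = 0.442) the groups were not distinguished.

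The rows miR-218a-5p and miR-218b held fractional counts in all 12 libraries, and were among 74 of the 753 names that did so, at a tolerance of 0.01 counts. Their sum was not a whole number in any library either, so the fractions were not shared between these 2 rows alone. The passenger rows held whole numbers in all 12 libraries. Vehicle rat 20, for example, was listed with 2864.8 reads of miR-218a-5p and 12097.7 of miR-218b, and with 25 and 36 reads of the passenger arms from the Slit2 and Slit3 loci.

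The division of reads within the miR-218 pair was compared with other pairs of names that RefSeq places at overlapping positions on opposite strands. This comparison was chosen after the values of miR-218b were seen. There were 47 such pairs with both names in the count lists, of which 31 had at least 1000 reads over the 12 libraries. In 23 of the 30 pairs other than miR-218, the less read name had 0 reads in all 12 libraries, and in 6 it had under 1% of the pair's reads. The remaining pair, miR-29b-3p with miR-3587, reached 1.16%. In the miR-218 pair the less read name had 19.9%, and it was the known guide, miR-218a-5p, that was less read. At this minimum of 1000 reads, the 30 other pairs thus had nearly all reads under 1 name, and the miR-218 pair did not. The row miR-218a-5p can also hold reads of the Slit3 locus, so its 19.9% need not be a division at 1 site. Pairs with fewer reads varied, and a divided count was not particular to miR-218 there. The less read name held 21.1% of 640 reads for miR-299a-3p with miR-299b-5p and 9.44% of 413 for miR-191a-3p with miR-191b, while other such pairs had 0%. The deposited lists hold no reads, so the strand of the reads listed as miR-218b was not tested.

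**Figure D2:**
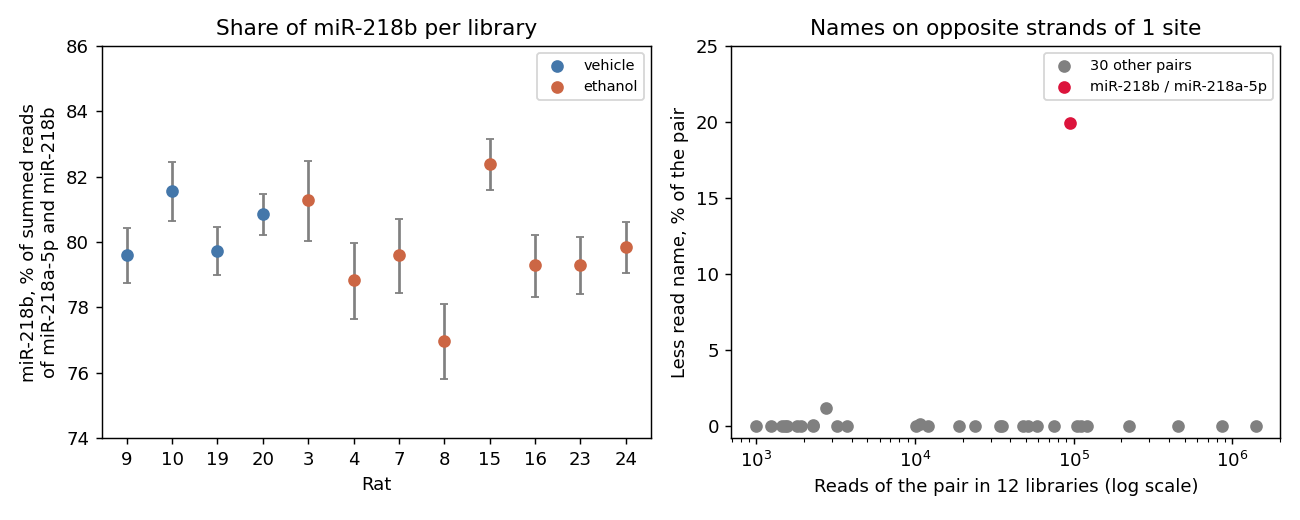
Left, miR-218b as a percentage of the summed reads of miR-218a-5p and miR-218b in each library (x axis, rat number), with 95% Wilson intervals; the axis starts at 74% and values run from 77.0% to 82.4%. Right, 31 pairs of names at overlapping positions on opposite strands, each with at least 1000 reads; miR-218a-5p can also hold reads of the Slit3 locus. Reads of the pair (x axis, log scale) are drawn against the percentage held by the less read name (y axis). The miR-218 pair lies at 19.9% and the 30 other pairs at or under 1.16%.

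In CPM (reads relative to library size, with TMM scaling between libraries), miR-218a-5p was at 592, 553, 484.5 and 610 in vehicle rats 9, 10, 19 and 20. In ethanol rats it ran from 341 (rat 3) through a median of 484.5 to 594.5 (rat 24). The lowest level thus belonged to ethanol rat 3, and 4 of 8 ethanol rats lay below every vehicle rat while the others fell within the vehicle range. For miR-218b the vehicle levels were 2311, 2446, 1907 and 2574. The ethanol levels ran from 1480 (rat 3) through a median of 1970 to 2355 (rat 24). Ethanol rats 3, 8 and 4 were the lowest, at 1480, 1585 and 1621, and again 4 of 8 lay below every vehicle rat. The sum of both rows averaged 2869 ± 339 CPM after vehicle (SD, n = 4) and 2384 ± 378 after ethanol (SD, n = 8).

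By mean level over the 12 libraries, miR-218b ranked 60 and miR-218a-5p ranked 110 among the 753 names, and the sum of both would rank 55. The sum made up 0.255% of the reads. The neighbours of miR-218a-5p in this order were miR-126a-3p at 523.5 ± 59.3 CPM (SD, n = 12), miR-409a-3p at 509 ± 68.1, miR-342-3p at 495.5 ± 32.5 and miR-182 at 495 ± 269. None of these differed from miR-218a-5p, at 509 ± 78.6, by more than the spread between libraries. The rows miR-218a-5p and miR-218b did not overlap in any library, since the highest level of the former was 610 CPM and the lowest of the latter 1480.

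Ethanol was compared with vehicle over the 420 miRNAs retained after rarely read names were left out, with edgeR's quasi-likelihood test and Benjamini-Hochberg adjustment over all 420. The 4 rows were among them, and 0 of the 4 had an adjusted p under 0.05, as was the case for 0 of 420 (0%). DESeq2 gave 1 of 420, which was no miR-218 row. The log2 fold change of miR-218b was -0.28 (standard error 0.126) and that of miR-218a-5p was -0.21 (standard error 0.126), each with an adjusted p of 0.971 by edgeR. Mean CPM of miR-218b in ethanol rats was 0.823 of that in vehicle rats, and the mean of the vehicle rats exceeded 7 of the 8 ethanol values. For miR-218a-5p the ratio was 0.864, again with 7 of the 8 values below that mean. Before adjustment, edgeR gave p = 0.0443 for miR-218b, rank 11 of 420, beside p = 0.0707 by the exact permutation test of log2 CPM. For miR-218a-5p, rank 40, edgeR gave p = 0.118 beside 0.127 by the exact permutation test. A raw p under 0.05 was thus seen in 1 of the 4 rows, against 17 of 420 (4.05%) overall. The sum of both rows had an exact permutation p of 0.0647. With both rows summed and fitted as 1 miRNA, the log2 fold change was -0.26 (adjusted p = 0.987 by edgeR). With groups of this size the smallest p of the exact test is 0.00202.

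**Figure D3:**
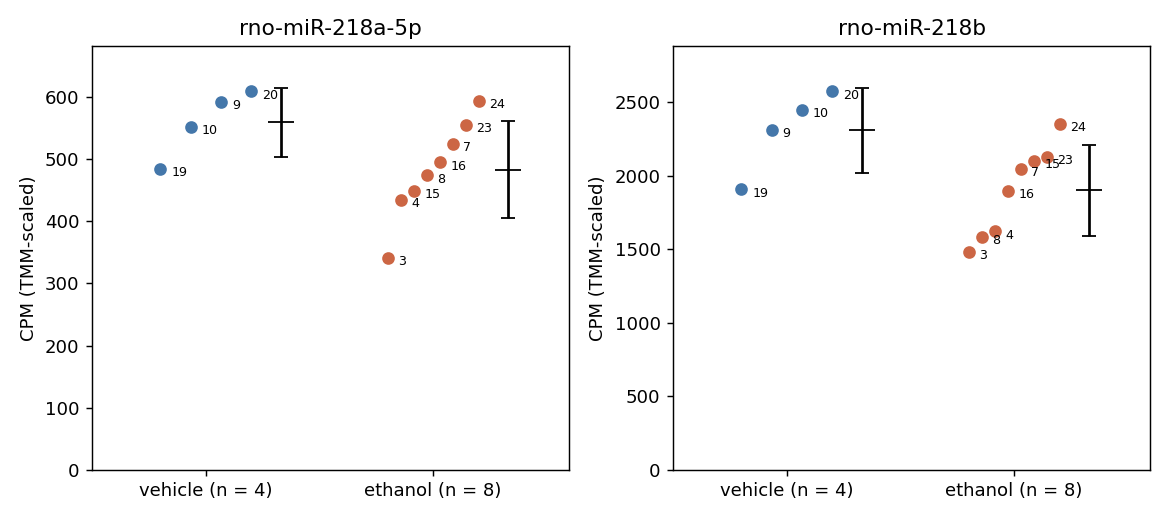
Levels of miR-218a-5p (left) and miR-218b (right) in CPM (y axis) for each vehicle (blue, n = 4) and ethanol rat (orange, n = 8), numbered by rat and drawn in order of level, with the mean and SD in black. Ethanol rat 3 is the lowest for both, at 341 and 1480 CPM, and the groups overlap in each panel.

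The passenger arms are listed by hairpin, which separates the loci as far as the authors' assignment of reads holds. Over all libraries, 136 reads were listed for miR-218a-1-3p, from the Slit2 locus, and 267 for miR-218a-2-3p, from the Slit3 locus. The Slit3 locus therefore gave 66.25% of the 403 passenger reads (95% Wilson interval 61.5% to 70.7%). This interval pools the reads of all rats and covers counting error only. In single libraries the share of the Slit3 locus ran from 48.15% to 90.9%. The Slit3 locus gave the majority in 11 of 12 libraries. The exception was vehicle rat 10, with 14 reads from Slit2 and 13 from Slit3. This is a division of passenger reads, and the amount of each hairpin was not measured.

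Reads of miR-218a-1-3p numbered 16, 14, 15 and 25 in vehicle rats 9, 10, 19 and 20. In ethanol rats they ran from 1 (rat 3) through a median of 7 to 20 (rat 24). In CPM the vehicle mean was 4.93 ± 1.22 (SD, n = 4) and the ethanol mean 2.92 ± 1.62 (SD, n = 8), and 6 of 8 ethanol rats lay below every vehicle rat. One of these 6 was nearly tied, with ethanol rat 7 at 3.146 CPM and vehicle rat 19, the lowest of its group, at 3.154 CPM. The single read of ethanol rat 3 was under the 3 counts taken as the smallest detectable amount, which correspond to between 0.610 and 1.53 CPM in these libraries before TMM scaling. The log2 fold change was -0.68 (standard error 0.372; adjusted p = 0.971 by edgeR; exact permutation p = 0.0768).

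Reads of miR-218a-2-3p numbered 29, 13, 36 and 36 in the vehicle rats, and from 10 (rat 3) through a median of 19 to 27 (rat 15) in the ethanol rats. Mean CPM was 7.58 ± 1.65 (SD, n = 4) and 6.97 ± 1.40 (SD, n = 8), and 1 of 8 ethanol rats lay below every vehicle rat. The log2 fold change was -0.13 (standard error 0.183; adjusted p = 0.971 by edgeR). Its sign changed to 0.44 when the 4 libraries highest in miR-133a-3p were left out, which leaves vehicle rat 10 as the only vehicle rat.

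The Slit3 locus gave 62.0% of passenger reads in vehicle rats (54.8% to 68.7%, 184 reads) and 69.9% in ethanol rats (63.5% to 75.55%, 219 reads). These intervals pool the reads of a group and do not cover the spread between rats. As a log2 ratio of miR-218a-1-3p to miR-218a-2-3p per library, the means were -0.62 ± 0.566 (SD, n = 4) and -1.39 ± 0.801 (SD, n = 8). The groups differed by -0.77, with p = 0.123 in a two-sided exact permutation test. This ratio was added after its values were seen.

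**Figure D4:**
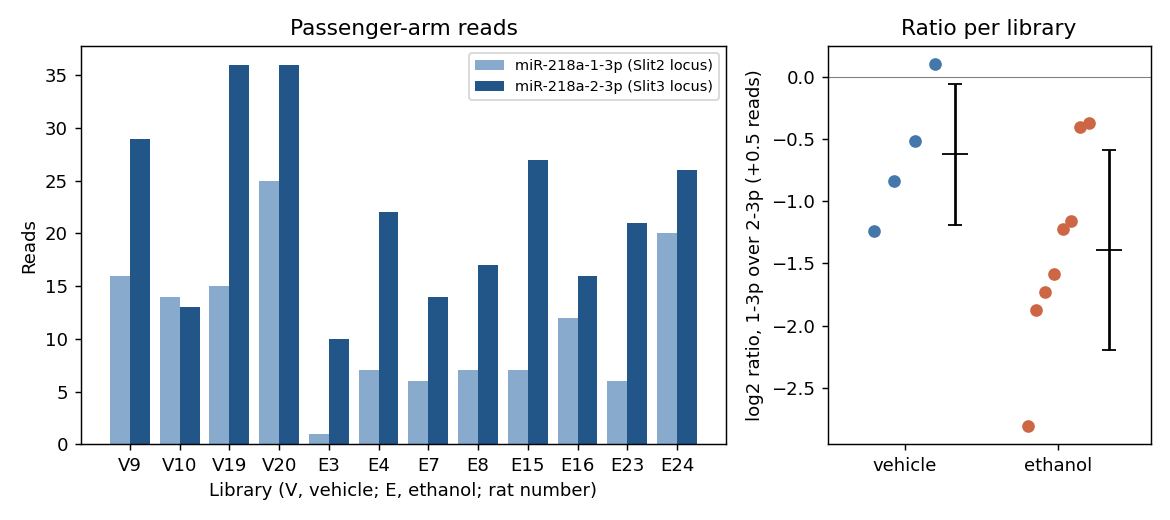
Left, reads of miR-218a-1-3p (light, Slit2 locus) and miR-218a-2-3p (dark, Slit3 locus) in each library (x axis). Right, log2 ratio of the former to the latter after adding 0.5 reads to each, per library, with group mean and SD in black; the vehicle mean is -0.62 and the ethanol mean -1.39, and the groups overlap.

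The share of passenger reads depended on whether miR-218b was counted with the guide. Of all reads in the 4 rows, the passenger arms took 0.509%, 0.382%, 0.446% and 0.406% in vehicle rats 9, 10, 19 and 20. In ethanol rats they took from 0.279% (rat 3) through a median of 0.408% to 0.5965% (rat 4). The groups overlapped, and the difference in mean log2 share was -0.09 (two-sided exact permutation test, p = 0.632). Without vehicle rat 9 this difference was -0.01, and without ethanol rat 3 it was -0.02. Of the reads of miR-218a-5p and the passenger arms alone, the passenger arms took 2.45%, 2.04%, 2.17% and 2.08% in the same vehicle rats. In ethanol rats that share ran from 1.47% (rat 3) through a median of 1.98% to 2.76% (rat 4). On this denominator, which was added after the data were seen, the groups again overlapped and differed by -0.14 in mean log2 share (two-sided exact permutation test, p = 0.374).

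The same share was computed for 19 other stems whose passenger arms are listed by hairpin number. With miR-218b counted as guide, miR-218a was among the 11 stems of the 20 with at least 1000 CPM of the guide, and 4 had a lower passenger share than its 0.421%. These were let-7a (0.0222%), miR-103 (0.0709%), miR-181a (0.241%) and let-7c (0.253%). Those above it were miR-181b (0.464%), miR-128 (0.800%), miR-30c (1.29%), miR-7a (1.86%), miR-24 (7.73%) and miR-125b (51.5%). The passenger rows let-7a-1-3p and let-7c-2-3p had the same mean level (7.62 CPM) and fold change. The shares of let-7a and let-7c may therefore rest in part on the same reads. Several stems had all passenger reads listed on 1 hairpin, such as miR-181a and miR-128 with 100% on the first. Why their other rows took none of these reads was not tested. The stem miR-218a had 33.75% on the first, near the 37.9% of miR-30c. Without miR-218b the passenger share of miR-218a was 2.08%, and 8 of the 10 other stems were then lower, with miR-24 and miR-125b above it. The place of miR-218a among these stems therefore turned on what the miR-218b row holds. Without miR-218b the guide itself was under 1000 CPM.

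The levels of the miR-218 rows were next set beside those of the other retained miRNAs over the 12 libraries, as Pearson correlations of log2 CPM. The libraries share depth scaling and tissue makeup, so these values are descriptions without a test. The rows miR-218a-5p and miR-218b had r = 0.87 with each other. The passenger arm miR-218a-1-3p had r = 0.85 with miR-218a-5p, and miR-218a-2-3p had r = 0.45 with it, at few reads each.

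The miRNAs most like miR-218b were miR-138-5p (r = 0.94), miR-493-3p (0.87), miR-222-3p (0.85), miR-9a-5p (0.83) and miR-582-3p (0.82). Of these, miR-138-5p is known to limit dendritic spine size in hippocampal neurons, and miR-9a-5p is a neural miRNA with a role in neurogenesis. The miRNAs most like miR-218a-5p were miR-664-2-5p (r = 0.89), miR-222-3p (0.88), miR-449a-5p (0.82), miR-488-3p (0.82) and miR-98-5p (0.81). Only miR-222-3p was in both sets of 5. At the other end for miR-218b stood miR-592 (r = -0.97) and miR-34a-5p (r = -0.89), named here after their values were seen.

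Mean CPM of miR-138-5p was 686 ± 85.4 after vehicle (SD, n = 4) and 590 ± 90.9 after ethanol (SD, n = 8), a log2 fold change of -0.22 (standard error 0.122). For miR-592, mean CPM was 26.3 ± 7.35 after vehicle (SD, n = 4) and 42.3 ± 17.8 after ethanol (SD, n = 8), which gave 0.66 as the log2 fold change (standard error 0.299). Neither had an adjusted p under 0.05 by edgeR (0.971 for each). Within the 8 ethanol libraries alone, r with miR-218b was 0.98 for miR-138-5p and -0.95 for miR-592. Both were picked by their r over the 12 libraries, which include these 8, so these values are no separate check.

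**Figure D5:**
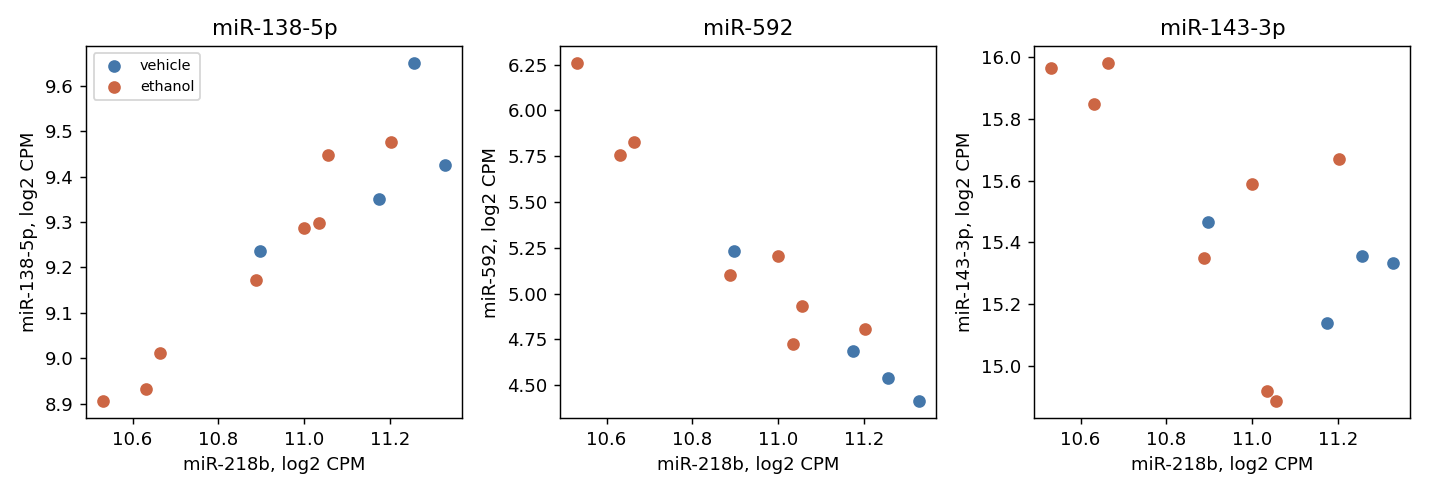
Levels in log2 CPM of miR-138-5p (left), miR-592 (middle) and the vascular marker miR-143-3p (right) against miR-218b (x axis), 1 point per library (vehicle blue, ethanol orange). Over the 12 libraries miR-138-5p runs with miR-218b (r = 0.94), miR-592 runs against it (r = -0.97), and miR-143-3p has r = -0.65.

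Marker lists were read beside these results. The 11 neuron-enriched miRNAs summed to between 36955 and 42208 CPM in vehicle rats and between 33496 and 41821 in ethanol rats. Their leading members were miR-9a-5p at 24300 ± 1412 and 23060 ± 1646 CPM in the respective groups, miR-128-3p and miR-124-3p, the classic neuronal miRNA, at 3257 ± 143 and 3078 ± 282.5. Of the 11, miR-129-5p was listed at 0 in all libraries, although the opposite arm miR-129-2-3p averaged 455.5 CPM. Why the 5p row held no reads was not tested. Among the 10 that were retained, 0 passed the adjusted threshold in either direction, and their median log2 fold change was -0.08, beside -0.02 over all 420. Their median r with miR-218b was 0.55, beside 0.07 over all retained miRNAs. Here and below, list correlations are given for miR-218b alone, not for the guide miR-218a-5p. The defining markers of neural tissue were thus present, other than the 5p row of miR-129.

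The 4 vascular markers summed to between 38686 and 48381 CPM in vehicle rats and between 32603 and 67951 in ethanol rats, and their median r with miR-218b was -0.575. None of the 4 was at 0. The 3 ethanol rats lowest in miR-218b, rats 3, 8 and 4, had vascular sums of 67050, 61876 and 67951, the highest of the 12 libraries. Their neuron-enriched sums were 37333, 33698 and 33496. Most of each vascular sum was miR-143-3p, at 63960, 59000 and 64700 CPM in these rats, so the order of the sums is largely that of 1 marker. By group, 2 of the 4 markers had lower and 2 had higher means after ethanol. Log2 fold changes were 0.25 for miR-143-3p, 0.19 for miR-145-5p, -0.06 for miR-126a-5p and -0.03 for miR-126a-3p. With the vascular marker mean as a covariate, the log2 fold change of miR-218b was -0.25 and that of miR-218a-5p -0.19.

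Markers of the remaining cell types likewise held no member past the adjusted threshold in either direction. Sums of the 3 choroid plexus markers ranged from 16516 to 70880 CPM, those of the 3 oligodendrocyte markers from 9332 to 19011, and those of the 5 blood and microglial markers found in the lists from 304 to 722. Their median log2 fold changes were -0.06, 0.19 and -0.02, and their median r with miR-218b was -0.03, -0.41 and -0.45, respectively.

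The Hox-cluster miRNAs of hindbrain and spinal cord, regions where miR-218 is known from motor neurons, summed to between 2052 and 2327 CPM in vehicle rats and between 1030 and 8954 in ethanol rats. Of these 5 names, miR-10a-5p and miR-10b-5p were retained, with log2 fold changes of 0.87 and 2.47 (adjusted p = 0.971 for each by edgeR) and a median r with miR-218b of -0.30. Without the 3 libraries highest in miR-10b-5p (ethanol rats 3, 4 and 24), the log2 fold change was -0.23 for miR-218b and -0.15 for miR-218a-5p. For muscle miRNAs the sign was the opposite. Of 5 names, 3 were retained, all with lower means after ethanol, at a median log2 fold change of -1.76 and a median r with miR-218b of 0.09. A raw p under 0.05 by edgeR was seen for 1 of them. The Hox-cluster and the neuron-enriched lists also held 1 such member each, higher after ethanol, against 17 of 420 (4.05%) over all retained miRNAs. Sums of the muscle miRNAs were 1685, 1626 and 1765 CPM in vehicle rats 9, 19 and 20 and 128 in vehicle rat 10. In ethanol rats they were 1712 in rat 16 and between 112 and 290 in the other 7. The muscle signal thus nearly followed the groups, and its part in the lower values of miR-218b and miR-218a-5p was not tested. Leaving out the 4 libraries highest in miR-133a-3p keeps vehicle rat 10 as the only vehicle rat, so the resulting log2 fold changes of -0.30 for miR-218b and -0.13 for miR-218a-5p compare 1 library with 7.

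Of 27 miRNAs known to be carried by introns of protein-coding genes, 25 were listed and retained, of which 0 passed the adjusted threshold, 15 had lower and 10 had higher means after ethanol. That is 60.0% lower, beside 54.0% (227 of 420) over all retained miRNAs. Their median log2 fold change was -0.06. The leading members were miR-26a-5p and miR-26b-5p, from introns of the Ctdsp family, which each had -0.06 as the log2 fold change (standard error 0.0631). Beside this median stand -0.28 and -0.21 for miR-218b and miR-218a-5p, and the gap was not tested.

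Library totals ranged from 2243413 to 4917928 reads in vehicle rats and from 1960704 to 3598771 in ethanol rats. With the log2 library total as a covariate, the log2 fold change was -0.24 for miR-218b and -0.17 for miR-218a-5p. The study multiplexed libraries in sets before sequencing, and which set held which library is not given in the sources used here, so within-set values were not computed.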

How the data were processed

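Small RNA (20 to 30 nt, gel purified from 1 µg of total RNA) was read for 37 cycles per library. The authors deposited, for each rat, estimated counts (expected counts) of reads per mature miRNA, not scaled for library size. The submitters' processing notes name cutadapt, Partek and the rat build rn5. The role of each tool, the miRNA annotation, the rule that divided reads between names and the use of strand are not given in the sources used here. Counts were rounded. After the study's methods, names were dropped where at least 10 libraries had under 10 reads.

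Analyses used R 4.3.3 with edgeR 4.0.16 (TMM factors, quasi-likelihood test, no covariates, fitted on all 420 retained miRNAs, Benjamini-Hochberg threshold 0.05), limma 3.58.1 and DESeq2 1.42.0. Log2 CPM used a prior count of 2. Ratios used deposited counts with 0.5 added. Exact permutation tests were two-sided, on the absolute difference in means over all 495 assignments of 4 vehicle labels. The fit was tested on simulated counts. Rats were bred in-house, the study limited the pups taken from each litter per condition, and the labels give no litter, so rats of a group may be littermates.

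Members, marker lists and tests were chosen with earlier results of these data known. Named miRNAs were the miR-218 rows, the 5 most correlated with miR-218a-5p and with miR-218b, the neighbours in level, the leading members of each list, and other stems with passenger arms by hairpin. Alternatives covered normalization, filter, test, rounding, depth, covariates, pseudocount and each rat left out.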

Additional observations from a re-analysis of the deposited data

Results flagged for a closer look

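Vehicle and ethanol rats were each searched for a distant value in 7 measures, namely log2 CPM of the 4 miR-218 rows, the log2 ratio of miR-218a-5p to miR-218b, the log2 ratio of the passenger rows and the log2 passenger share. This made 14 searches. None found a sample set apart by the criterion used, where chance alone gives 0.7.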

How the results depend on the processing

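The direction of miR-218b and of miR-218a-5p was kept, and no adjusted p under 0.05 was reached, under 26 alternatives run for each, beside the fit without the 4 libraries highest in miR-133a-3p, which has 1 vehicle rat. Log2 fold changes lay between -0.37 and -0.22 for miR-218b and between -0.28 and -0.16 for miR-218a-5p with each rat left out in turn. With the other alternatives they lay between -0.32 and -0.23 and between -0.26 and -0.15. The value of -0.26 is the fit of both rows summed, which was counted among the alternatives of each row. For miR-218a-5p by itself the most negative of these was -0.25, with library totals alone. The raw p of miR-218b was under 0.05 in 14 of the 26 and ran from 0.0144 to 0.138 in edgeR, DESeq2 and limma. For miR-218a-2-3p the log2 fold change moved from -0.13 to -0.45 with counts down-sampled to the smallest library, to -0.02 without vehicle rat 9 and to -0.25 without vehicle rat 10, and reversed to 0.44 in the fit with 1 vehicle rat. The passenger share difference of -0.09 ranged from -0.17 to -0.01 with each rat left out, the latter without vehicle rat 9. The stricter filter left out miR-218a-1-3p, so it gave no value there. The ratios of rows kept their direction and side of the threshold under each alternative run for them.

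The count of miRNAs past the threshold moved from 0 to 1 with DESeq2's Wald test, and ranged from 0 to 3 with each rat left out, the 3 arising without ethanol rat 16. None of these was a miR-218 row. The covariates of marker means and the fits without libraries high in miR-10b-5p or miR-133a-3p, and the passenger share without miR-218b, were chosen after seeing the data. No paired analysis was possible because the groups share no animal number. Passenger arms had between 1 and 36 reads per library, which limits their precision.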

Other observations

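Among pairs of names on opposite strands with fewer than 1000 reads over the 12 libraries, which were not part of the comparison in the report, a divided count was also seen. Of 640 reads listed for miR-299a-3p and miR-299b-5p, the latter held 21.1%, and between 2.77% and 35.6% in single libraries. Of 413 reads listed for miR-191a-3p and miR-191b, the latter held 9.44%. These names were chosen after their values were seen, and the strand of their reads was not tested.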
